A study of Mus musculus with 27 samples.

Results

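Switch junctions of the Sα core that share exactly 2 bases between their ends were examined in CH12F3 cells, a mouse B lymphoma line that switches from IgM to IgA. The junctions came from LAM-HTGTS, a sequencing assay that copies DNA outward from a primer in 1 fixed piece of the genome, the bait, and so records which other piece, the prey, each bait end had been ligated to. A 2-base join was a junction on chromosome 12, on the minus strand and at positions 114496668 to 114502828 (mm9), whose bait and prey alignments overlapped by 2 bases of the read. There were 14242 such joins. They made up 20.8% of the 68485 deletional joins of that core, which are joins in the orientation that loops out the DNA between Sμ and Sα, and they came from 193201 junctions in all.

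All cells carried the same stimulation of 72 h with IL-4, αCD40 and TGFβ, and no unstimulated cells were analysed here. The 9 clones were WT (the parental line, 1 clone) and 2 clones each of PAXX-/-, XLF-/-, XLF-/-PAXX-/- and Ligase4-/-, with 3 libraries per clone. Both XLF-/-PAXX-/- clones had been made from 1 of the PAXX-/- clones, and one of the Ligase4-/- clones had been obtained from elsewhere. The design text calls the 3 libraries of a clone biological replicates without saying whether they were separate cultures, so tests between libraries measure the spread between libraries of these clones. Libraries held 3610 to 14524 junctions, 1357 to 4828 deletional core joins and 257 to 1127 2-base joins.

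Class switching joins a break in Sμ, next to the constant region of IgM, to a break in a downstream switch region such as Sα, next to the constant region of IgA. Both breaks start from cytosines deaminated by the enzyme AID, which favours the motif AGCT. Classical non-homologous end joining closes such breaks with DNA ligase 4, XLF and PAXX among its factors, and leaves direct joins or joins that share few bases. When it is missing, cells use alternative end joining, which is known for joins at microhomology, short sequences shared by both ends. In the RefSeq gene order of GRCm38.p6, used here for order only, Igha lies at one end of the constant genes and Ighd and Ighm at the other, with Ighe and the Ighg genes between.

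The bait, from chr12:114664780-114664913 on the minus strand of mm9, is printed below because every 2-base join ends somewhere within it. Its positions are counted from 1 at its first base, and capitals mark the pairs at the 5 most used ends.
bait: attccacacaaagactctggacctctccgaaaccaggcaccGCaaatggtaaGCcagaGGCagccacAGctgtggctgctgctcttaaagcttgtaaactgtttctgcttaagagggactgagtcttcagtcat
The 5 most used prey positions follow as 20 bases of the minus strand each, with the shared pair in capitals, from chr12:114500011-114500030, chr12:114499970-114499989, chr12:114500051-114500070, chr12:114500089-114500108 and chr12:114499862-114499881.
prey 114500020: gagctgagctAGacttaggg
prey 114499979: gagcttacctAGaccgggca
prey 114500060: gagctgaactAGtataaact
prey 114500098: gctagactagGCtgggctga
prey 114499871: agatggacttAGttgaggtg

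A join that recurred in 11 libraries of 7 clones shows how such a read is built. The bait stretch (chr12:114664839-114664866) and the prey stretch (chr12:114500044-114500063) share only the AC in capitals, and the read passes from one to the other through it.
join 2 bait: ggtaagccagaggcagccACagctgtgg
join 2 prey: actagtataaACttggctag
join 2 read: ggtaagccagaggcagccACttggctag
All 11 reads of this join were identical over the 28 bases shown. The most frequent join, of bait end 54 to prey position 114500098 through GC, was seen 17 times in 17 libraries of 8 clones. It was found in all 5 genotypes, with 2 junctions in WT, 2 in PAXX-/-, 5 in XLF-/-, 4 in XLF-/-PAXX-/- and 4 in Ligase4-/-.
join 1 bait: aggcaccgcaaatggtaaGCcagaggca
join 1 prey: gctagactagGCtgggctga
In 13 of its 17 reads the prey part carried C17G, counted from 1 at the first base of the prey stretch shown. Because the difference lies beyond the shared pair, it leaves the class unchanged.

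The bases at each join were also read against the reference. At all 14242 joins the 2 shared bases matched both the bait and the prey reference, and at none did the next base on either side extend the match. Because the class is defined by where the alignments end, this checks how the positions were read and adds no support for the class. The 14242 joins were 7679 different combinations of bait end and prey position. Of these, 4195 were seen once and 3216 were seen in 2 or more clones, which together held 66.6% of the 2-base joins. Repeats within a library were few, 0.201% to 0.753% of the joins of a clone.

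Some clones carried base substitutions in the bait, and these bear on the counts. C70T was in 37.8% and 42.6% of bait reads covering that position in the XLF-/-PAXX-/- clones and in 40.02% in PAXX-/- clone 2. PAXX-/- clone 2 also carried G69A in 50.9%, and XLF-/- clone 1 carried G81A in 47.04%. Otherwise the commonest change at each of these 3 positions was in at most 2.27% of a clone's reads. When each clone's own bait bases were accepted and the overlap was counted again, 454 joins entered the 2-base class and 78 left it for a longer overlap. The 454 had been entered as 329 insertions, 57 direct joins and 68 1-base joins. Those gained were 193 in XLF-/-PAXX-/- clone 2, 156 in clone 1, 101 in PAXX-/- clone 2, 4 in XLF-/- clone 1 and 0 in the other clones. The deposited classes are used unless a value is said to be recounted.

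The 2-base share of deletional core joins fell into a low and a high set of clones. WT libraries had 15.1%, 15.8% and 14.5%, PAXX-/- clone 1 had 15.3%, 15.2% and 14.9%, and PAXX-/- clone 2 had 16.01%, 14.2% and 13.8%. XLF-/- clone 1 had 25.1%, 26.2% and 24.5%, and clone 2 had 25.1%, 25.3% and 23.1%. XLF-/-PAXX-/- clone 1 had 22.9%, 24.5% and 21.4%, and clone 2 had 21.3%, 22.5% and 23.4%. Ligase4-/- clone1 had 21.7%, 24.8% and 23.3%, and clone2 had 25.8%, 20.97% and 24.2%. No library of WT or PAXX-/- overlapped any library of the other 3 genotypes, since the highest of the former was 16.01% and the lowest of the latter 20.97%.

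**Figure D1:**
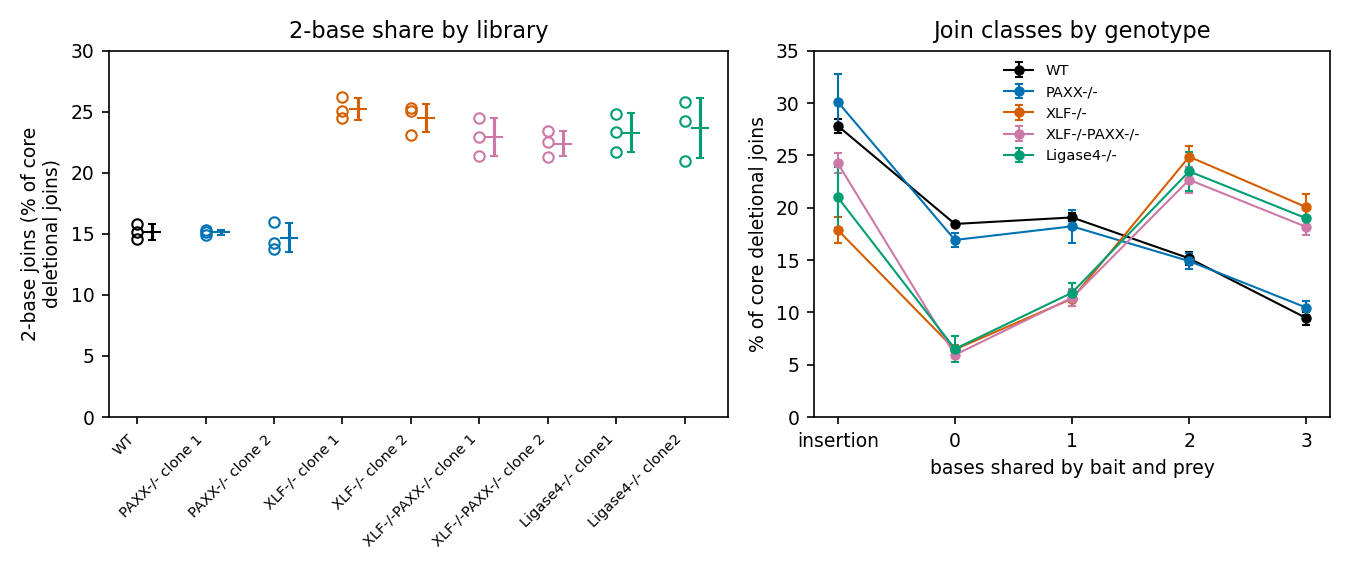
Left, the 2-base share of deletional core joins in each library (open circles), with the mean and SD of the 3 libraries of each clone beside them. Right, the share of each class of join by genotype (mean and SD over libraries), in which 0 and 1 shared bases are lower and 2 and 3 shared bases are higher in XLF-/-, XLF-/-PAXX-/- and Ligase4-/- than in WT and PAXX-/-.

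Over the 9 clones, 99.6% of the variation in the 2-base share (sum of squares) lay between genotypes (exact permutation p = 0.00212, adjusted p = 0.0106 over 5 measures). This call was lost without PAXX-/- clone 2 (adjusted exact permutation p = 0.0833) or without XLF-/-PAXX-/- clone 2 (adjusted exact permutation p = 0.0595), and it held after recounting (adjusted exact permutation p = 0.0317). Compared by library, XLF-/- was 9.71 percentage points above WT (95% interval 7.98 to 11.4), XLF-/-PAXX-/- 7.51 points (5.56 to 9.45) and Ligase4-/- 8.31 points (5.39 to 11.2). The two-sided exact permutation test gave 0.0119 for each, which is as low as a design of 6 and 3 libraries can go, with an adjusted p of 0.0167 over 7 contrasts. Leaving out any 1 WT library raised the adjusted exact permutation p to 0.05, and leaving out either mutant clone of a contrast raised its exact p to 0.1. In both cases the exact p was already the lowest that the remaining libraries allow. After recounting the 3 differences were 9.74, 9.29 and 8.31 points, each with an adjusted exact permutation p of 0.0208. PAXX-/- differed from WT by -0.265 points (-1.68 to 1.15, exact permutation p = 0.631), and by 0.399 after recounting. Bait ends up to 67 lie before the substituted positions. Among joins with those ends, WT had 19.8% and the PAXX-/- clones 17.8% and 17.4%, a wider gap that was not called.

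PAXX-/- and XLF-/- are the pair that can be compared within a sequencing run, because they shared 2 of the 8 runs, and every other genotype had runs of its own. The XLF-/- mean lay 9.98 points over the PAXX-/- mean (95% interval 8.75 to 11.1), with an exact permutation p of 0.00216 and an adjusted p of 0.0152. After recounting the difference was 9.34 points with the same exact permutation p. One shared run gave 9.41 points and the other 10.3, and the test stratified by run gave an exact p of 0.00476, the smallest it allows. For WT, XLF-/-PAXX-/- and Ligase4-/- run and genotype cannot be told apart.

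Loss of PAXX on top of XLF gave a lower 2-base share in the deposited alignments, and the difference was no longer called after recounting. XLF-/-PAXX-/- differed from XLF-/- by -2.21 points (95% interval -3.72 to -0.712, exact permutation p = 0.0108, adjusted p = 0.0167). After recounting, its clones were at 24.4% and 24.5% against 25.3% and 24.5% in XLF-/-, a difference of -0.442 points (exact permutation p = 0.5). The recount can only lengthen an overlap. It changed 7.75% and 8.47% of core joins in the XLF-/-PAXX-/- clones, against 0.357% and 0.0217% in the XLF-/- clones. With bait ends up to 67 only, before the substituted positions, the XLF-/-PAXX-/- clones had 26.6% and 26.3%. The XLF-/- clones had 29.0% and 27.4% there, and the difference was not called. Among joins without insertion, over all bait ends, XLF-/-PAXX-/- differed from XLF-/- by -0.370 (-2.22 to 1.58, exact permutation p = 0.667). The XLF-by-PAXX interaction was -1.94 points in the deposited alignments (permutation p = 0.0369) and -0.841 after recounting (permutation p = 0.343). XLF-/-PAXX-/- differed from Ligase4-/- by -0.807 points (-2.88 to 1.32, exact permutation p = 0.385), and by 0.980 after recounting.

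**Figure D2:**
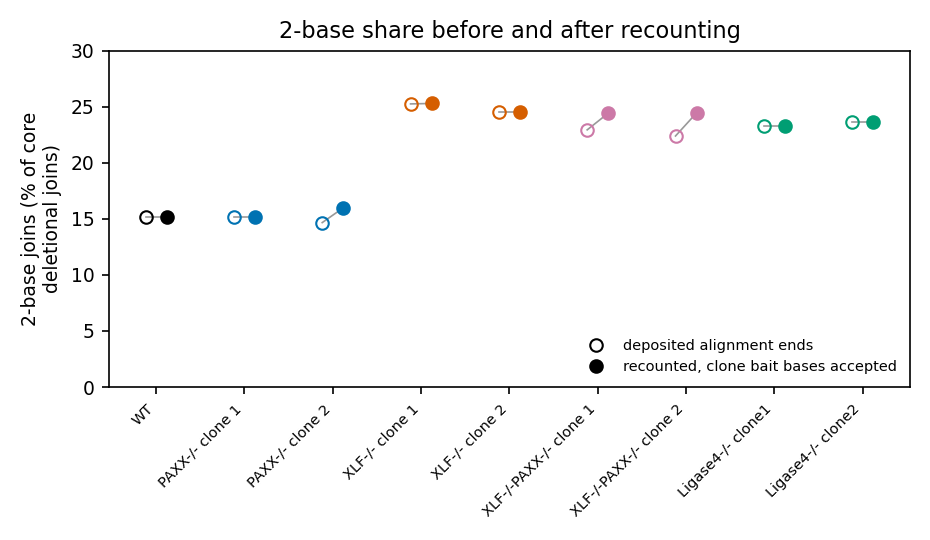
The 2-base share of deletional core joins by clone (mean of 3 libraries), from the deposited alignment ends (open) and after accepting each clone's own bait bases (filled). The XLF-/-PAXX-/- clones move from 22.9% and 22.4% to 24.4% and 24.5% and PAXX-/- clone 2 from 14.7% to 15.996%, and XLF-/- clone 1 stays at 25.3%.

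Direct joins made up 18.5% ± 0.0646 of deletional core joins in WT and 16.9% ± 0.628 in PAXX-/-, against 6.45% ± 0.432 in XLF-/-, 5.94% ± 0.338 in XLF-/-PAXX-/- and 6.51% ± 1.23 in Ligase4-/-. The 3-base class ran the other way, at 9.46% ± 0.618, 10.5% ± 0.663, 20.1% ± 1.25, 18.2% ± 0.808 and 18.99% ± 0.265 in the same order. Library 2 of Ligase4-/- clone2, which had the lowest 2-base share of its genotype (20.97%), had 8.95% direct joins. The other Ligase4-/- libraries had 5.57% to 6.40%.

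Against the classes on either side, the 2-base joins stood differently in the 2 sets of clones. For each 1-base join there were 0.795 ± 0.038 (SD, n = 3 libraries) 2-base joins in WT and 0.821 ± 0.056 (n = 6) in PAXX-/-. The ratio was 2.20 ± 0.072 in XLF-/-, 2.00 ± 0.18 in XLF-/-PAXX-/- and 1.98 ± 0.16 in Ligase4-/- (n = 6 each). This ratio differed between genotypes over the 9 clones (exact permutation p = 0.00847, adjusted p = 0.0339 over 8 measures chosen after seeing the data). Within the shared runs it was 1.37 and 1.39 higher in XLF-/- than in PAXX-/- (stratified exact permutation p = 0.00476). For each 3-base join there were 1.61 ± 0.14 2-base joins in WT, 1.43 ± 0.15 in PAXX-/-, and 1.24 to 1.25 in the other genotypes (exact permutation p = 0.0159, adjusted p = 0.0423). The ratios thus moved in opposite directions, up against 1 shared base and down against 3.

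Among microhomology joins alone, those with 1 or more shared bases, the 2-base class made up 28.2% in WT, 27.7% in PAXX-/- clone 1 and 28.6% in clone 2. The 6 clones of the other genotypes lay between 31.9% and 33.5%. The gap of XLF-/- over PAXX-/- was 4.75 points (95% interval 3.12 to 6.22), at an exact permutation p of 0.00216 (adjusted p = 0.0152). The genotype test over clones gave an exact p of 0.0402 and an adjusted p of 0.0503. Among joins without insertion the 2-base share was 21.004% to 21.5% in the WT and PAXX-/- clones and 29.1% to 30.8% in the others (exact permutation p = 0.0296, adjusted p = 0.0503). After recounting, PAXX-/- clone 2 was at 22.1% and the XLF-/-PAXX-/- clones at 30.7% and 30.6%, and the genotype tests among microhomology joins and among joins without insertion were both called (adjusted exact permutation p = 0.0450 each). Of the 945 ways to assign the clones, 45 keep WT and PAXX-/- apart from the rest, so that separation without any order inside the sets gives an exact p of at most 0.0476.

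Inversional joins of the same core, in which the prey lies on the other strand, did not show the same gap. Their 2-base share was 20.9% ± 3.61 in WT (56 of 267 joins, 3 libraries) and 19.5% ± 4.73 in PAXX-/- (97 of 516). It was 22.9% ± 3.39 in XLF-/- (352 of 1597), 21.01% ± 2.91 in XLF-/-PAXX-/- (538 of 2601) and 21.1% ± 1.74 in Ligase4-/- (589 of 2790). The gap of XLF-/- over PAXX-/- was 3.36 points with a 95% interval of -2.13 to 8.41 (exact permutation p = 0.195). It was -4.30 in one shared run and 7.18 in the other. The interval reaches 8.41 points, so a gap nearly as wide as in deletional joins could have been missed.

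In WT and PAXX-/- the deletional share was below the inversional share in each of the 9 libraries. The deletional minus inversional difference was -5.77 ± 3.03 points in WT and -4.61 ± 4.03 in PAXX-/-, against 2.01 ± 3.84 in XLF-/-, 1.66 ± 3.72 in XLF-/-PAXX-/- and 2.36 ± 0.832 in Ligase4-/-. All 6 Ligase4-/- libraries were above 0, whereas XLF-/- reached down to -4.13 and XLF-/-PAXX-/- to -5.53. This orientation difference was itself 6.62 points higher in XLF-/- than in PAXX-/- (interval 1.63 to 11.8; exact permutation p = 0.0130, adjusted over 7 contrasts 0.0455). Ligase4-/- lay 8.13 points over WT (interval 5.11 to 10.7; exact permutation p = 0.0119, adjusted 0.0455). The XLF-/- gap was 13.7 points in one shared run and 3.08 in the other, and over the 9 clones the genotype test had an exact p of 0.0413 and an adjusted p of 0.0550. Single inversional libraries of WT and PAXX-/- held only 39 to 116 joins.

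Among joins to prey within 10 kb below the bait, the 2-base share showed the same 2 sets of clones. It was 13.9% ± 1.30 in WT, 13.6% ± 1.06 in PAXX-/-, 21.9% ± 1.56 in XLF-/-, 20.9% ± 0.6001 in XLF-/-PAXX-/- and 21.4% ± 1.83 in Ligase4-/-. The genotype test over clones gave an exact p of 0.0392 and an adjusted p of 0.0550.

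A few pairs made up most of the shared sequence. Read 5′ to 3′ along the read, GC was shared in 19.7% of 2-base joins, AG in 15.5%, TG in 12.3%, CT in 9.93%, GG in 9.54%, CA in 5.73% and AA in 5.51%, with clones weighted equally. Together these 7 pairs made up 78.2%. AT (66 joins) and CG (27 joins) were rare, and 14 of the 16 pairs were frequent enough to test. GC was commoner among the shared pairs than in the core sequence, where it is 7.83% of neighbouring bases, and than among the last 2 bait bases of direct joins, where it was 13.1%. GA went the other way, with 9.54% of the core sequence, 2.04% of the bait ends of direct joins and 2.82% of the shared pairs. A pair can be shared only where both bait and core hold it, and in the 100 bait pairs that were used as ends GC, AG and CT each occur 11 times and CG once.

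**Figure D3:**
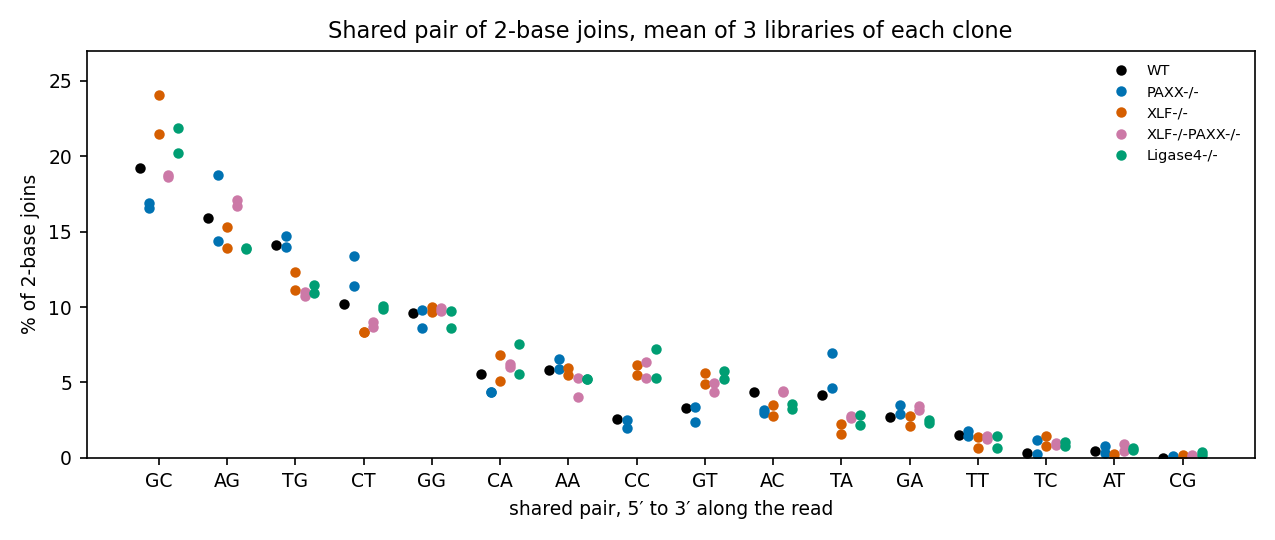
The share of 2-base joins at each shared pair, 1 point per clone (mean of 3 libraries), coloured by genotype. WT and PAXX-/- lie lowest at CC and highest at TA and TG.

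Between genotypes over the 9 clones, 0 of the 14 pairs (0% called) passed the exact permutation test after adjustment, 7 had an unadjusted exact permutation p under 0.05, and the lowest adjusted p was 0.0642. In simulated data AA was raised and TT lowered 2-fold in XLF-/-, XLF-/-PAXX-/- and Ligase4-/- only, and this test recovered 5% of these changes. Without order inside the 2 sets of clones, such a change can leave an exact permutation p as high as 0.0476 before adjustment. The test could therefore show little of this pattern, and other patterns were not simulated. The share of pairs made of G and C only, taken as 1 measure after seeing the data, did differ between genotypes (exact permutation p = 0.00423, adjusted p = 0.0339). It was 31.4% ± 3.17 in WT, 28.3% ± 3.04 in PAXX-/-, 38.6% ± 2.01 in XLF-/-, 34.6% ± 1.52 in XLF-/-PAXX-/- and 36.8% ± 1.96 in Ligase4-/-. Of bait ends 78 to 88, only 79 and 82 hold such a pair (GC each). That stretch, described below, held 11.6% of 2-base joins in WT and 17.9% in PAXX-/-. In the other genotypes it held 1.23% to 1.63%. The measure was not taken again without the stretch, so its part in the difference was not tested.

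Between XLF-/- and PAXX-/- within their shared runs, 6 of 14 pairs (42.9% called) passed the exact stratified permutation test after adjustment. GC was 22.8% ± 2.36 in XLF-/- and 16.7% ± 1.79 in PAXX-/- (adjusted exact permutation p = 0.0267), and CC was 5.83% ± 0.995 and 2.26% ± 0.795 (adjusted exact permutation p = 0.0222). No XLF-/- library was as low in CC (4.51% to 6.98%) as the highest PAXX-/- library (3.20%). GT was also higher in XLF-/-, at 5.26% ± 0.741 against 2.85% ± 1.08. Its lowest XLF-/- library (4.32%) was just above its highest PAXX-/- library (4.24%). Lower in XLF-/- were CT (8.35% ± 1.43 against 12.4% ± 1.86), TG (11.7% ± 1.505 against 14.3% ± 2.03) and TA (1.92% ± 0.549 against 5.80% ± 1.74). The lowest PAXX-/- library had 2.74% TA and the highest XLF-/- library 2.58%, so these did not overlap either. Of the 14 tested pairs, all but CC, GT and TA overlapped between the libraries of XLF-/- and PAXX-/-.

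Bait ends of 2-base joins lay at 100 positions, 35 to 134, and no single end dominated. The 5 most used were 43 (GC, 3.47%), 60 (GG, 3.39%), 69 (AG, 3.28%), 54 (GC, 3.24%) and 61 (GC, 3.17%), which held 16.6% together. The bait holds 1 AflII site, CTTAAG, at positions 108 to 113. The labels name AflII as the blocking step, in which an enzyme cuts the unrearranged bait. Of the 2-base joins 343 (2.41%) kept the bait through the whole site, from 0.119% of those in WT (1 join) to 3.71% in the clone with the most.

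One stretch of the bait was nearly empty of ends in XLF-/-, XLF-/-PAXX-/- and Ligase4-/-. Positions 78 to 88, a stretch picked from the profile of ends and so described without a test, held 12.7%, 8.33% and 13.8% of 2-base joins in the WT libraries. They held 11.97%, 15.8% and 17.2% in PAXX-/- clone 1 and 24.1%, 18.6% and 19.5% in PAXX-/- clone 2. In XLF-/- the 6 libraries ranged from 0.637% to 3.26%, in XLF-/-PAXX-/- from 1.17% to 1.75% and in Ligase4-/- from 0.683% to 2.92%. The lowest WT library was thus above the highest library of those 18.

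Other classes of join were low there too. The stretch took 21.4% of direct joins in WT, 20.6% in PAXX-/- clone 1, 23.95% in PAXX-/- clone 2, and between 1.24% and 3.46% in each of the remaining 6 clones. Its part of all deletional core joins was 18.8%, 17.7% and 21.7% in the same 3 clones against 2.79% to 3.63%. Of 2-base joins within 10 kb below the bait it held 15.2% (48 of 315), 13.3% and 20.9% against 0.750% to 1.86%. Position 81, substituted in XLF-/- clone 1, lies in the stretch; the stretch held 1.44% of 2-base joins in that clone and 1.81% in XLF-/- clone 2, where the substitution was in 0.214% of reads. The part of the substitution in the low share was not tested.

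**Figure D4:**
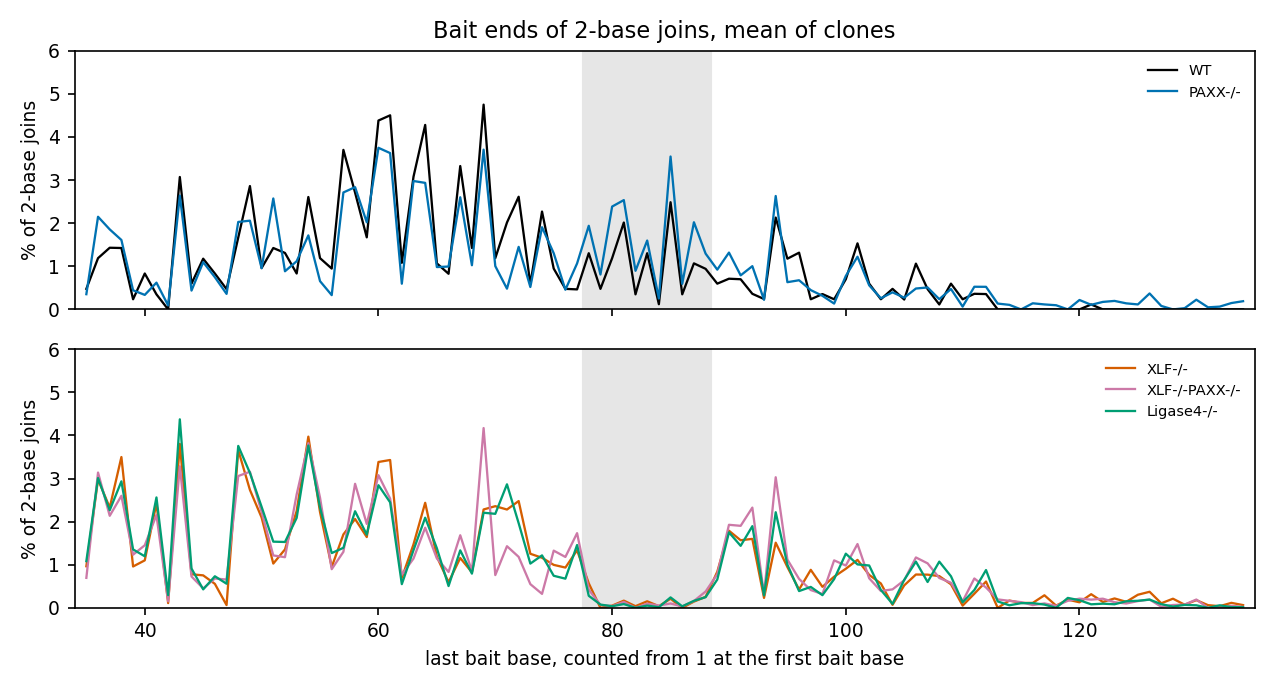
The share of 2-base joins at each last bait base, counted from 1 at the first bait base (mean of clones), for WT and PAXX-/- above and XLF-/-, XLF-/-PAXX-/- and Ligase4-/- below. Grey marks positions 78 to 88, which hold 11.6% of 2-base joins in WT, 17.9% in PAXX-/- and 1.23% to 1.63% in the other genotypes.

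Single bait ends were tested one by one. Between XLF-/- and PAXX-/- within their shared runs, 23 of 69 ends (33.3% called) passed the exact stratified permutation test after adjustment, 13 higher and 10 lower in XLF-/-. Among the lower were end 85 (CT, 0.212% ± 0.191 against 3.55% ± 0.799), end 81 (TG, 0.167% ± 0.136 against 2.54% ± 0.831) and end 87 (TA, 0.144% ± 0.165 against 2.02% ± 0.910), as were ends 78, 83 and 88. Each of these had an adjusted exact permutation p of 0.0253. Higher in XLF-/- were, among others, ends 41 (CC, 2.43% ± 0.239 against 0.621% ± 0.217), 38 (GC, 3.50% ± 0.471 against 1.61% ± 0.457) and 54 (GC, 3.97% ± 1.06 against 1.72% ± 0.432), again with an adjusted exact permutation p of 0.0253. Called ends lay on both sides of the 78 to 88 stretch: ends 91, 92 and 99 were also higher in XLF-/-, and ends 51, 63 and 67 were lower. The called ends include 69, 70 and 71, at or beside the bases substituted in PAXX-/- clone 2. End 71 held 0.0969% of 2-base joins in that clone and 0.865% in PAXX-/- clone 1. Each share is a part of all 2-base joins of a library, so fewer joins at ends 78 to 88 leave larger shares for the rest. The ends were not tested again without that stretch. All ends named here were chosen after their values were seen.

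Over all 5 genotypes and the 9 clones, 3 of 69 bait ends (4.35% called) passed the exact permutation test, and each had an adjusted exact p of 0.0243. End 67 (AC) held 3.33% of 2-base joins in WT, 2.60% in PAXX-/-, 1.16% in XLF-/-, 1.68% in XLF-/-PAXX-/- and 1.33% in Ligase4-/-. End 92 (CT) ran the other way, at 0.362%, 1.00%, 1.60%, 2.33% and 1.89% in the same order. End 99 (AC) was at 0.235%, 0.135%, 0.722%, 1.101% and 0.666%. Of bait ends of direct joins 0 of 57 (0% called) passed the same test, with 12 at an unadjusted exact permutation p under 0.05. Direct joins were fewer, 6735 against 14242, with 86 to 221 in single XLF-/- libraries, so these counts do not compare the classes.

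The dinucleotides and the bait ends are not separate measurements, since a bait end fixes the pair. With bait ends 78 to 88 left out, 7 of 14 pairs (50% called) passed between XLF-/- and PAXX-/- within runs. CC, GT, GC and TA kept their directions, with CC at 5.93% against 2.73% and TA at 1.81% against 4.64% (adjusted exact permutation p = 0.0222 each). CT turned to 8.07% in XLF-/- against 5.97% in PAXX-/- (adjusted exact permutation p = 0.0476), and TG was no longer called, at 11.2% against 11.9% (adjusted exact permutation p = 0.505). AG, at 14.9% against 20.1%, and GA, at 2.45% against 3.90%, were lower in XLF-/- there (adjusted exact permutation p = 0.0222 and 0.0333).

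Within the other stretches of the bait the mean 2-base share of XLF-/-, XLF-/-PAXX-/- and Ligase4-/- was above those of WT and PAXX-/- as well, given here without a test. For joins that ended at positions 35 to 56 it was 19.6% ± 2.49 in WT, 16.9% ± 0.814 in PAXX-/-, 30.1% ± 1.48 in XLF-/-, 28.3% ± 1.96 in XLF-/-PAXX-/- and 28.3% ± 1.64 in Ligase4-/-. At 57 to 77 it was 15.7% ± 1.35, 14.5% ± 1.93, 22.2% ± 1.09, 18.1% ± 0.811 and 20.5% ± 2.79 in the same order. At 89 to 134 it was 15.2% ± 1.68, 14.6% ± 1.83, 23.5% ± 1.87, 24.3% ± 1.60 and 22.96% ± 1.24. Within positions 78 to 88 it was 9.33% ± 2.14, 13.4% ± 1.87, 12.9% ± 6.31, 11.3% ± 1.92 and 8.35% ± 2.91, on 1045, 3179, 385, 479 and 568 joins. With that stretch left out, an alternative chosen after seeing the data, the share of XLF-/- still lay 10.02 points over that of PAXX-/- (exact permutation p = 0.00216, adjusted p = 0.0152).

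Mean bait length, the number of bait bases aligned in the read, was 63.7 ± 1.81 in WT, 66.2 ± 1.93 in PAXX-/-, 62.8 ± 1.71 in XLF-/-, 63.6 ± 1.45 in XLF-/-PAXX-/- and 61.5 ± 0.737 in Ligase4-/-. Genotypes did not pass the test over clones for bait length (exact permutation p = 0.0921, adjusted p = 0.0921). Within clones, the mean bait length of 2-base joins minus that of direct joins was -1.87 bases, with shorter bait in 2-base joins in 9 of 9 clones (exact sign-flip permutation p = 0.00391, adjusted p = 0.00781). The bait length of a 2-base join includes the 2 shared bases. Leaving them out subtracts 2 from the difference of every clone and gives -3.87 bases, so its direction was fixed in advance. With bait ends up to 67 only, the difference was -0.436 bases, in the same direction (exact sign-flip permutation p = 0.00391). The double mutant also had many direct joins at a single end, position 69, the base before its substituted position: 14.8% and 17.3% of direct joins against 1.18% to 3.05% in the other clones.

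Prey positions of 2-base joins were scattered over the core. They fell on 3797 of its 6161 positions, 1190 of them used once. The most used, 114500020, held 37 junctions from 19 libraries of all 9 clones, and the 5 printed above held 1.19% together. Position 114499871 had 0 junctions in WT, which had 843 2-base joins, and 6 to 9 in each other genotype. WT had the fewest 2-base joins of any genotype, and used positions held a median of 3 junctions over all libraries. A 0 at a single position therefore does not show that WT lacks it.

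Prey ends of 2-base joins lay farther from the bait in XLF-/-, XLF-/-PAXX-/- and Ligase4-/-. Measured from the bait-proximal edge of the core, the median distance was 2767.5, 2775 and 2791 bases in the WT libraries, and 2812.5 to 2927.5 in the 6 PAXX-/- libraries. It was 3434.5 to 3543 in XLF-/-, 3506 to 3606 in XLF-/-PAXX-/- and 3416 to 3751.5 in Ligase4-/-, again without overlap with WT and PAXX-/-. The XLF-/- median lay 655 bases beyond the PAXX-/- median (95% interval 601 to 702), at an exact permutation p of 0.00216 and an adjusted p of 0.0152. It lay 697 bases beyond in one shared run and 634 in the other. The genotype test over clones gave an exact p of 0.0402 and an adjusted p of 0.0503, and after recounting an adjusted exact permutation p of 0.0450. PAXX-/- was 72 bases farther than WT (19 to 136.5, exact permutation p = 0.0238, adjusted p = 0.0333), in a comparison that run cannot be told apart from.

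**Figure D5:**
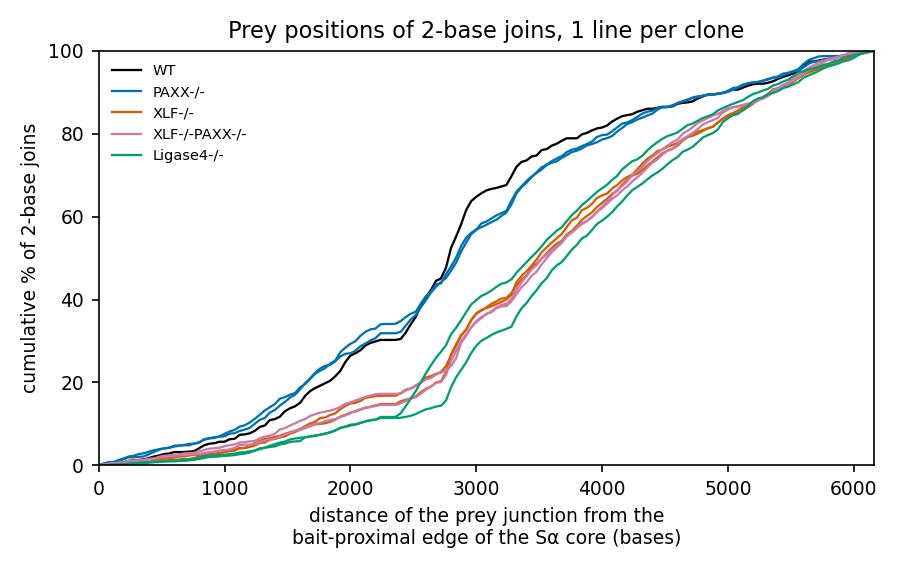
Cumulative share of 2-base joins by the distance of the prey from the bait-proximal edge of the Sα core, 1 line per clone coloured by genotype. The lines of WT and both PAXX-/- clones run above the others, with 26.5%, 29.2% and 27.3% of joins within the first 2000 bases against 9.31% to 15.3% in the other clones.

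The first 2000 bases of the core held 26.5% ± 1.76 of 2-base joins in WT, 28.2% ± 2.12 in PAXX-/-, 13.98% ± 1.72 in XLF-/-, 14.01% ± 1.67 in XLF-/-PAXX-/- and 9.58% ± 3.38 in Ligase4-/-. The part from 4000 bases on held 18.5% ± 1.66, 20.8% ± 1.26, 35.9% ± 1.48, 37.7% ± 1.69 and 37.1% ± 4.27 in the same order. The 2 Ligase4-/- clones differed from each other, with medians of 3443 ± 28.02 and 3704.5 ± 43.04 bases. The median of direct joins was 2710 in WT, 2749 in PAXX-/- clone 1, 2715 in PAXX-/- clone 2 and 3322.5 to 3624 in the other clones. Within clones, 2-base joins lay 65.7 bases farther than direct joins on average, higher in 7 of 9 clones, which did not pass (exact sign-flip permutation p = 0.207).

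Within each part of the core the mean 2-base share of XLF-/-, XLF-/-PAXX-/- and Ligase4-/- was above those of WT and PAXX-/-. The parts were cut after seeing the positions and are given without a test. In the first 2000 bases it was 14.5% ± 0.622 in WT, 13.9% ± 1.53 in PAXX-/-, 22.5% ± 2.04 in XLF-/-, 21.1% ± 1.49 in XLF-/-PAXX-/- and 17.5% ± 2.45 in Ligase4-/-. From 2000 to 4000 bases it was 14.99% ± 0.114, 14.98% ± 0.702, 24.7% ± 1.47, 21.7% ± 1.099 and 23.7% ± 2.03 in the same order. From 4000 bases on it was 16.9% ± 2.81, 16.3% ± 0.674, 26.2% ± 1.79, 24.8% ± 2.28 and 25.2% ± 1.97.

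AGCT, which reads the same on both strands, occurs 140 times in the core and 2 times in the bait. Of neighbouring bases in the core 6.84% lie inside an AGCT, and 7.58% of the shared pairs did so on the prey side, all of them GC, AG or CT. By genotype this was 9.74% ± 0.988 in WT, 9.03% ± 1.81 in PAXX-/-, 7.79% ± 0.565 in XLF-/-, 6.51% ± 1.07 in XLF-/-PAXX-/- and 6.37% ± 1.70 in Ligase4-/-, with no call over the 9 clones (exact permutation p = 0.320). On the bait side 11.4% of the pairs lay inside one of the 2 motifs, which are bait ends 69 to 71 and 90 to 92. By library this was 9.62% to 9.78% in WT and 6.69% to 10.5% in PAXX-/-. It was 10.5% to 13.5% in XLF-/-, 10.8% to 14.6% in XLF-/-PAXX-/- and 10.9% to 13.98% in Ligase4-/-, given without a test. Positions 69 and 70 are among those substituted in some clones. No pair lay inside AGCT on both sides, as the class requires, because the match would then be longer than 2 bases.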

How the data were processed

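Junctions of 27 LAM-HTGTS libraries, 3 from each of 9 clones, were taken from the authors' deposited tables, which give 1 junction per line with its positions on the read and on the mm9 build; these positions are neither counts nor normalised values. Bowtie2 and mm9 are named in the submitters' processing notes; the further steps were not found in the labels or headers. Each table pools the 3 libraries of 1 clone, and its library column carries no replicate number, so libraries were numbered by name. No value column was left unmapped (0).

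Overlap was the last bait base minus the first prey base on the read plus 1. Reference bases came from the deposited 20-base junction sequences (10 each side of a junction), which agreed at every position and covered 6144 of 6161 core positions. For the recount, a bait base carried by at least 10% of a clone's reads was accepted.

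Genotypes were compared over clones by exact permutation of the between-genotype sum of squares (945 splits), libraries by exact permutation (two-sided, 84 or 924 splits), whose inversion gave the intervals, and the interaction by 100000 residual permutations. Adjustment was Benjamini-Hochberg at 0.05. Tests over clones take clones as independent, which the shared origin of the double mutants may break. Pairs holding 5% or more of 2-base joins, the 5 most used bait ends and prey positions, and any pair passing its test were named by rule. The class and the lists were chosen with earlier results of these data known. In 500 simulated data sets without a difference, 3.6% (genotypes) and 4.8% (6 against 3 libraries) had an unadjusted exact permutation p under 0.05. With WT and PAXX-/- lower by 8 points, 100% did. The simulated libraries were drawn independently, without a clone effect. These rates therefore do not cover libraries that share a clone, nor adjusted calls. Python 3.11.15, numpy 2.4.6, pandas 2.3.3, scipy 1.17.1 and matplotlib 3.10.9 were used.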

Additional observations from a re-analysis of the deposited data

Results flagged for a closer look

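In PAXX-/- the 2-base share of joins without insertion was 22.6% in library 1 of clone 2, with the nearest of the other 5 libraries at 21.4%, which places it apart from its group. CT was shared in 8.98% of 2-base joins in library 1 of PAXX-/- clone 1, the lowest of its group, with the nearest at 12.2%. TG was shared in 8.92% in library 3 of XLF-/- clone 2, the lowest of its group, with the nearest at 11.6%. These are 3 of 60 groups examined, and chance alone flags about 1 in 20. The effect of PAXX loss on the 2-base share differed with and without XLF loss by -1.94 points (permutation p = 0.0369), and this was -0.841 once substituted bait bases were accepted. The gap between deletional and inversional joins differed between XLF-/- and PAXX-/- by 6.62 points and between Ligase4-/- and WT by 8.13 points (adjusted exact permutation p = 0.0455 each). The causes of these differences were not tested.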

How the results depend on the processing

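No paired analysis was possible because the library column carries no replicate numbers. With joins without insertion as denominator, the genotype test of the 2-base share (99.1% of the sum of squares) and XLF-/-PAXX-/- minus XLF-/- (-0.370) were no longer called, nor was the interaction (-0.679), and PAXX-/- minus WT (0.309) and XLF-/-PAXX-/- minus Ligase4-/- (0.223) changed sign. After recounting, PAXX-/- minus WT (0.399) and XLF-/-PAXX-/- minus Ligase4-/- (0.980) changed sign, XLF-/-PAXX-/- minus XLF-/- (-0.442) and the interaction (-0.841) lost their call, and the genotype tests of the share of microhomology joins (95.9%), of the share without insertion (99.0%) and of prey position (96.9%) were called. With bait ends up to 67 only, XLF-/-PAXX-/- minus XLF-/- (-1.76) lost its call, XLF-/-PAXX-/- minus Ligase4-/- (0.382) and the interaction (0.503) changed sign, 1 pair was called, and the tests of the share of microhomology joins (93.7%), of the share without insertion (98.1%), of prey position (92.9%) and of bait length (92.5%) were called. In a 20 kb window the tests of the share of microhomology joins (98.4%), of the share without insertion (99.9%) and of prey position (96.0%) were called. Without bait ends 78 to 88, chosen after seeing the data, the interaction (-0.936) lost its call, 1 pair was called, and the tests of the share of microhomology joins (92.0%) and of the share without insertion (98.7%) were called. Collapsing identical junctions changed no call among the 16 results.

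Leaving out 1 library or clone at a time, the genotype test of the 2-base share ranged from 98.8% to 99.8% and lost its call without PAXX-/- clone 2 or XLF-/-PAXX-/- clone 2. The share of microhomology joins ranged from 92.8% to 97.4%, the share without insertion from 98.2% to 99.5%, prey position from 95.3% to 99.8%, bait length from 68.9% to 92.6% and called pairs from 0 to 1. XLF-/- minus PAXX-/- ranged from 9.60 to 10.4. Against WT, XLF-/- ranged from 9.33 to 10.1, XLF-/-PAXX-/- from 7.14 to 7.82 and Ligase4-/- from 7.85 to 8.81. Each lost its call in 5 of 35 cases: without any 1 WT library (adjusted exact permutation p = 0.05) or without either mutant clone (exact permutation p = 0.1). The exact p in those cases was the lowest that the remaining libraries allow, so these losses say nothing about the size of the differences. PAXX-/- minus WT ranged from -0.572 to 0.0531, the latter without WT library 2. XLF-/-PAXX-/- minus XLF-/- ranged from -2.59 to -1.83, losing its call in 3 of 36 cases (without either XLF-/- clone or XLF-/-PAXX-/- clone 2), minus Ligase4-/- from -1.31 to -0.341, and the interaction from -2.32 to -1.56 with no call in 13 of 35. Against direct joins, prey position ranged from 26.2 to 91.1 and bait length from -2.13 to -1.68. Prey position against direct joins passed without XLF-/- clone 2 (91.1 bases). The cause of these changes was not tested. Depth limits the inversional joins, of which single WT and PAXX-/- libraries held 39 to 116.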
